A study of Homo sapiens with 6 samples.

Results

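Condensins, mitotic kinases, the spindle checkpoint and the cytokinesis machinery carry a cell from entry into mitosis to the separation of its daughters, and 41 genes of this machinery were followed in U2OS cells with aggregated or diffuse TDP-43. The genes were taken by name from the 36601 rows of the gene count table, and all 41 were found there. Transcription of most such genes is periodic and peaks in G2 and mitosis, so that their RNA is high in cycling cells and low in resting ones. The periodicity rests on the MuvB core complex, which acts as a repressor together with RB-family proteins and as an activator together with MYBL2 and FOXM1, and which binds promoters through a short element called CHR (cell cycle genes homology region), often near CCAAT boxes bound by NF-Y. In cancer lines such as U2OS, a human osteosarcoma line, this program is a common measure of proliferation.

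Both groups were U2OS cells with doxycycline-induced TDP-43-mNLS-Clover, a green fluorescent form of the RNA-binding protein TDP-43 whose name marks an altered nuclear localization signal. One group of 3 libraries, called aggregates here, came from cultures transfected by lipofectamine-3000 with 50 nM fibril seeds of the TDP-43 low-complexity domain and sorted by image for cells with Clover aggregates. The other group of 3 libraries, called diffuse, came from cultures mock transfected with protein storage buffer and sorted for diffuse Clover. Collection was at 48 hours, each library came from its own transfection, and the labels give all 6 libraries 1 batch. No library came from cells without the transgene, and a single engineered line was used. Aggregates, exposure to fibrils and the sort gate coincide in this design and cannot be told apart.

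Values are given below with aggregates first and diffuse second, means are ± SD over n = 3 libraries, and single values are in the order of libraries 1, 2 and 3. PolyA RNA was sequenced, and the 6 libraries held 40279084 to 46863013 gene counts. Each of the 41 genes had between 823 and 46949 counts in every library. Of 9 U2OS and mesenchymal markers all were measured, and they summed to 5586 to 6038 CPM (counts relative to the library total, scaled by TMM) in aggregates and 8306 to 8669 CPM in diffuse cells. Collagen genes were prominent among them, with COL1A1 at 1516 ± 103 CPM against 3211 ± 77 CPM and COL1A2 at 7.36 ± 0.722 CPM against 24.6 ± 1.15 CPM. The 6 blood cell markers summed to at most 0.526 CPM, with HBB at 0 counts in all libraries, and the 6 epithelial markers to 12.2 to 13.3 CPM in aggregates and 18.6 to 19.5 CPM in diffuse cells. Neuronal markers summed to 173 to 181 CPM in aggregates and 132 to 136 CPM in diffuse cells. By the test described below 3 of 6 rose and 3 fell, where 37.8% and 37.6% of all genes tested did. The part of the markers in the results below was not tested.

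The promoters are shown first because many genes of mitosis are known to share these 2 short elements. RefSeq start sites of GRCh38.p14 were found for 34 of the 41 genes, with 47 windows of 300 bases that run from 250 bases before the start to 50 bases after it. The entry is missing for AURKA, BUB3, TTK, BIRC5, TPX2, RACGAP1 and FOXM1. The 150 bases before the start are printed 5′ to 3′ for 3 genes with large falls (DLGAP5, ECT2, PRC1) and 3 with small ones (CCNB2, PLK1, CDC20). Capitals mark a CHR-type element (TTTGAA or TTCGAA on either strand, thus also TTCAAA) or a CCAAT box (CCAAT, or ATTGG on the other strand). Bases shared by neighbouring matches count for both. All genes printed carry both elements in the stretch shown, which does not hold for every gene. MAD2L1, with a larger fall than PRC1, has neither in its 150 bases. CCNB1, NCAPH and AURKB, with smaller falls than CCNB2 and PLK1, have no CHR-type match in their windows. The stretches lie at chr14:55191586-55191735 on the minus strand, chr3:172750576-172750725 on the plus strand (the first of 2 start sites), chr15:90994536-90994685 on the minus strand, chr15:59104996-59105145 on the plus strand, chr16:23678739-23678888 on the plus strand and chr1:43358831-43358980 on the plus strand.
DLGAP5: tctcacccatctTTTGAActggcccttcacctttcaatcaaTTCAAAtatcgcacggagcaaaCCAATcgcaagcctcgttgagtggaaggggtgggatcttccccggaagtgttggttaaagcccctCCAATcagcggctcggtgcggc
ECT2: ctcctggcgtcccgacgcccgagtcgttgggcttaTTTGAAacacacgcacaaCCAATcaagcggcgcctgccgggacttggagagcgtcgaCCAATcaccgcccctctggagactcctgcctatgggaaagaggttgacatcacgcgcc
PRC1: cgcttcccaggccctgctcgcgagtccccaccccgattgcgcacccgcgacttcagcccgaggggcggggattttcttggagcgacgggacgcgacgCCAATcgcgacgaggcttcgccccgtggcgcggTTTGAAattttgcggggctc
CCNB2: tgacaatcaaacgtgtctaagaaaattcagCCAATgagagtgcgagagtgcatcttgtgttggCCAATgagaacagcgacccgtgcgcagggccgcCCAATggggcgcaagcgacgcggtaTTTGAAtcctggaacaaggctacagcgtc
PLK1: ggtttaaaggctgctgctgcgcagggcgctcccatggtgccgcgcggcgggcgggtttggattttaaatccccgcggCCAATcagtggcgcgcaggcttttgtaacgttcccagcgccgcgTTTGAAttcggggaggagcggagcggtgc
CDC20: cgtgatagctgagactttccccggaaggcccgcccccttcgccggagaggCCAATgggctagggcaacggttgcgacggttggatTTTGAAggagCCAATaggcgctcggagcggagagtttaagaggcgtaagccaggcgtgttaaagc

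A CHR-type element was present in 29 of the 47 windows (61.7%) against 12.3% of the windows of all genes tested and 16.4% of all 35116 RefSeq windows. CCAAT was present in 34 windows (72.3%), against 34.1% and 34.6%. Both motifs occurred together in 23 windows (48.9%), against 4.84% and 6.38%. Counted by gene, 26 of 34 (76.5%) had a CHR-type match in at least 1 window, against 16.1% of the genes tested that have a window. Both motifs lay in the same window in 21 genes (61.8%), against 6.59%. Of the 6 promoters printed, PRC1 and PLK1 carry the arrangement most plainly, with 1 CCAAT box followed by 1 CHR-type element close to the start. A match is a description of these letters only, and no binding was measured here.

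**Figure D1:**
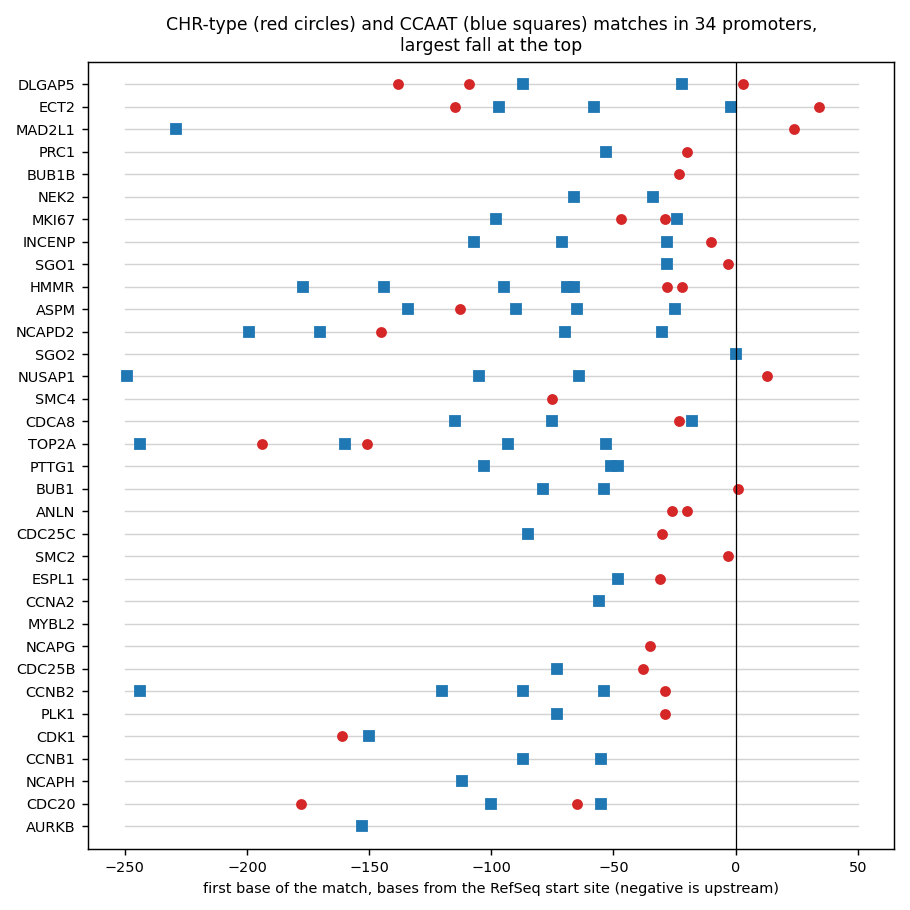
Position of CHR-type elements (red circles) and CCAAT boxes (blue squares) in the promoters of 34 genes, ordered from the largest fall in aggregates at the top to the smallest at the bottom. The x axis gives the first base of each match in bases from the RefSeq start site, and for a gene with several windows the 1 with most kinds of motif is drawn, or the first of equals. Matches of both kinds occur along the whole order, from DLGAP5 at the top to CDC20 near the bottom.

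The expression comparison asks how the RNA of this machinery differed between sorted aggregate and diffuse cells. All 41 genes were lower in aggregates. Together they summed to 6787, 7086 and 7102 CPM in aggregate libraries 1, 2 and 3 and to 11996, 11827 and 12111 CPM in diffuse libraries 1, 2 and 3. The groups did not overlap, and the aggregate mean of 6992 ± 177 CPM (SD, n = 3) was 58.4% of the diffuse mean of 11978 ± 143 CPM. In bulk RNA, a smaller share of cells in G2 and mitosis and less RNA of these genes per cell cannot be told apart.

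Each of the 41 passed the edgeR quasi-likelihood test at an adjusted p under 0.05, all as falls and none as rises. The genes were chosen with earlier results of these data known, so this count is not independent of the choice. Among all 17839 genes tested, 37.6% fell and 37.8% rose. The median log2 fold change of the 41 was -0.67, beside 0.01 over all genes tested. A test against a fold of 1.5 (edgeR glmTreat) passed 22 of the 41 as falls, where 13.5% of all genes did. In all 41 the highest aggregate library was below the lowest diffuse library, as it was for 38% of all genes. The fold changes ran from -1.93 for RACGAP1 to -0.11 for AURKB. Of the 41, 9 lay under -1, 22 between -1 and -0.5 and 10 above -0.5, and 12 lay within the lowest 10% of all genes tested. SEs were between 0.04 and 0.05.

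The share of mitochondrial mRNA was 3.30% to 3.48% in aggregates and 2.54%, 3.37% and 2.53% in diffuse libraries 1, 2 and 3. Its part in the falls was not tested. Replicates differed by more than sampling noise in every pair, so none was treated as a copy of another.

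**Figure D2:**
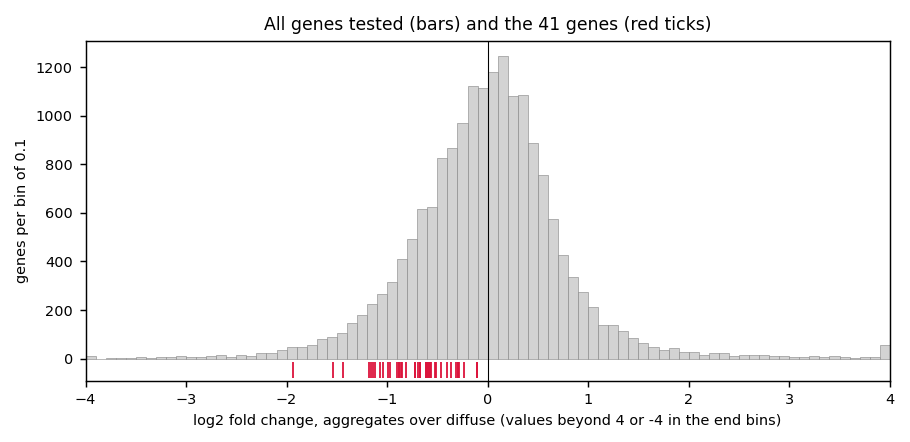
Distribution of log2 fold changes, aggregates over diffuse, over all 17839 genes tested (grey bars, genes per bin of 0.1, values beyond 4 or -4 in the end bins) with the 41 genes as red ticks. The bars centre near the median of 0.01, and every tick lies below 0, between -1.93 and -0.11.

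**Figure D3:**
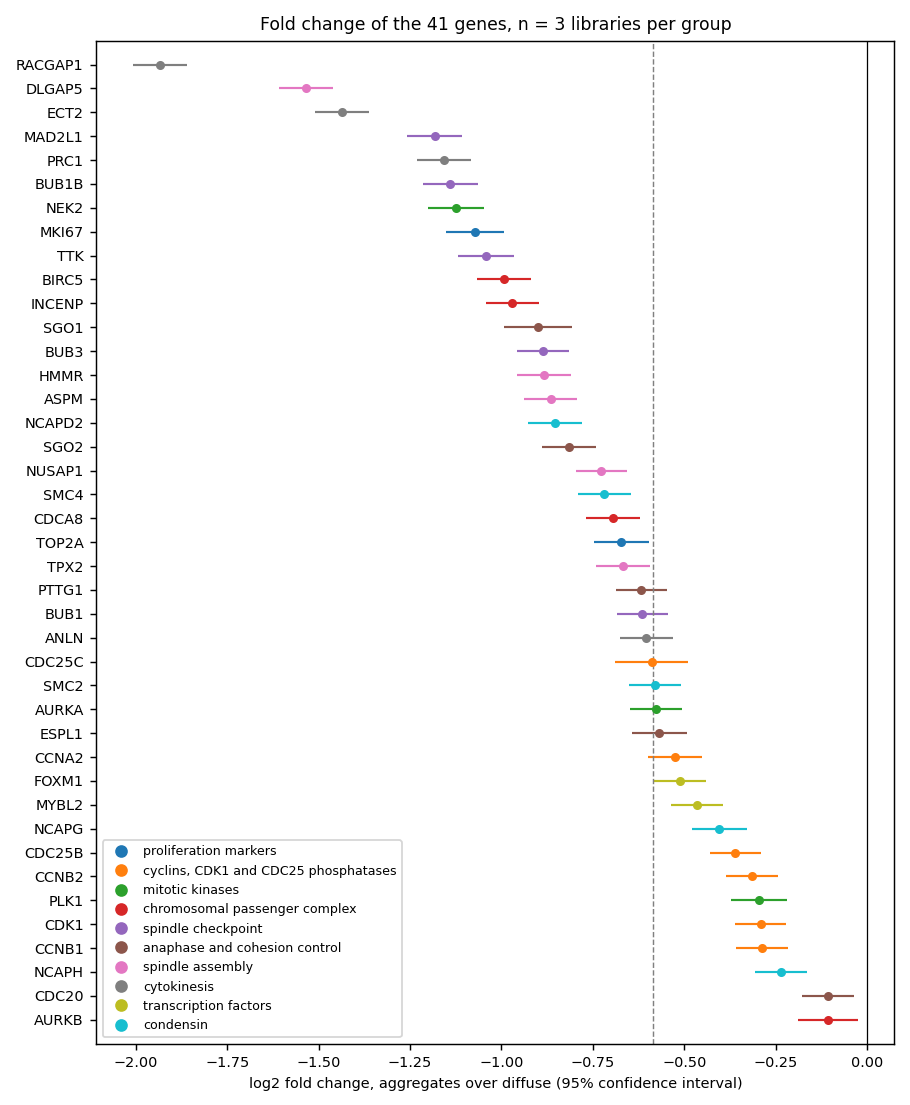
Log2 fold change of each gene, aggregates over diffuse, with an approximate 95% confidence interval computed from the edgeR F statistic (n = 3 libraries per group), coloured by role. The dashed line marks a 1.5-fold fall: cytokinesis, spindle and checkpoint genes lie to its left, while CDK1, CCNB1, CCNB2 and PLK1 lie to its right, and CDC20 and AURKB are closest to 0.

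The transcription factors of the program fell moderately. FOXM1, the forkhead activator of G2 and mitotic genes, stood at 198, 209 and 202 CPM in the aggregate libraries and 293, 288 and 287 CPM in the diffuse libraries. MYBL2 (B-MYB), its partner on the MuvB complex, stood at 355, 368 and 369 CPM in the aggregate libraries and 514, 492 and 502 CPM in the diffuse libraries. Every aggregate library was below every diffuse library for both. Neither passed the 1.5-fold limit (FOXM1: log2 fold change -0.51, SE 0.04, edgeR quasi-likelihood test, adjusted p = 2.29e-24; MYBL2: -0.47, adjusted p = 1.81e-21). Per kilobase of exon, MYBL2 was the most abundant of the 41 in aggregates, at 131 CPM per kb. For FOXM1, 15.9% of exon bases overlap ITFG2 on the opposite strand, and the strand setting of the counting is not known.

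The cyclins, CDK1 and the CDC25 phosphatases, the engine of mitotic entry, showed small falls, with a median of -0.34 and none of 6 beyond 1.5-fold. CDC25C, a phosphatase that removes inhibitory phosphates from CDK1, had 19.1, 19.5 and 19.9 CPM in the aggregate libraries and 29.8, 28.2 and 30.0 CPM in the diffuse libraries. It was the lowest of the 41 per kilobase, at 8.79 CPM per kb in diffuse cells. CCNA2, the S and G2 phase cyclin A, had 88.1, 92.4 and 94.1 CPM in the aggregate libraries and 132, 128 and 135 CPM in the diffuse libraries. CDC25C came to a log2 fold change of -0.59 and CCNA2 to -0.53, with no overlap between groups. The other 4 held closer to their diffuse level. CDK1, the kinase that drives mitosis, was at 187 ± 0.502 CPM against 229 ± 1.38 CPM (log2 fold change -0.29, SE 0.04, edgeR quasi-likelihood test, adjusted p = 2.77e-12). Of the cyclin B genes, whose products activate CDK1, CCNB1 was at 270.3 ± 7.51 CPM against 329.9 ± 6.89 CPM and CCNB2 at 135 ± 1.8 CPM against 168 ± 6.43 CPM, 81.9% and 80.5% of the diffuse level. CDC25B was at 77.9% of its diffuse level. Together the 6 summed to 79.0% of the diffuse level, the highest share of the 10 role groups.

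Among the mitotic kinases, NEK2, which separates the centrosomes, fell most, at 55, 59 and 58.6 CPM in the aggregate libraries and 126, 121 and 129 CPM in the diffuse libraries (log2 fold change -1.12, SE 0.04, edgeR quasi-likelihood test, adjusted p = 3.3e-46). AURKA, the kinase of spindle poles, had 118, 123 and 123 CPM in the aggregate libraries and 183, 175 and 187 CPM in the diffuse libraries. The groups lay apart for both, and AURKA came to -0.58, on the 1.5-fold line. PLK1, which acts from mitotic entry to cytokinesis, was at 93.1 ± 5.34 CPM against 114 ± 4.52 CPM, 81.5% of the diffuse level. Of the exon bases of PLK1, 11.6% overlap an antisense gene, and the strand setting of the counting is not known.

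The chromosomal passenger complex corrects wrong attachments at the centromere and consists of a kinase, AURKB, and 3 partners. All 3 partners fell by more than 1.5-fold, and the kinase changed least. BIRC5 (survivin) had 247, 253 and 247 CPM in the aggregate libraries and 515, 465 and 505 CPM in the diffuse libraries. INCENP, the scaffold, had 99.1, 107 and 99.9 CPM in the aggregate libraries and 205, 195 and 200.5 CPM in the diffuse libraries. The groups lay far apart for both, with aggregates at 50.3% and 51.1% of the diffuse mean (BIRC5: log2 fold change -0.99, SE 0.04, edgeR quasi-likelihood test, adjusted p = 8.3e-43). CDCA8 (borealin) was at 87.3 ± 4.8 CPM against 141 ± 1.36 CPM, with a log2 fold change of -0.69. AURKB itself had 48.4, 50.4 and 47.9 CPM in the aggregate libraries and 53.4, 53.1 and 51.4 CPM in the diffuse libraries. Its groups were adjacent without overlapping, and its fall was the smallest of the 41 (log2 fold change -0.11, SE 0.04, edgeR quasi-likelihood test, adjusted p = 0.0165). The 95% interval of AURKB (-0.19 to -0.02) did not meet that of any partner, the nearest being CDCA8 (-0.77 to -0.62). The AURKB call was lost under upper quartile scaling (log2 fold change -0.06, adjusted p = 0.164) and without aggregates library 1 (-0.10, adjusted p = 0.0655).

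The spindle checkpoint delays anaphase until all chromosomes are attached, and 4 of its 5 genes here fell by more than 1.5-fold, with a median of -1.04. MAD2L1, the MAD2 protein that inhibits the anaphase-promoting complex, had 68.8, 63.6 and 71.6 CPM in the aggregate libraries and 154, 151 and 158 CPM in the diffuse libraries. BUB1B (BUBR1), which joins it in the inhibitory complex, had 67.7, 71.7 and 69.5 CPM in the aggregate libraries and 148, 158 and 155 CPM in the diffuse libraries. Every aggregate library was far below every diffuse library for both, at 44.1% and 45.4% of the diffuse mean (MAD2L1: log2 fold change -1.18, SE 0.04, edgeR quasi-likelihood test, adjusted p = 3.42e-47). TTK (MPS1), the kinase that starts the checkpoint signal, was at 55.8 ± 2.16 CPM against 115 ± 0.412 CPM. BUB3, the carrier of the BUB proteins, was at 204 ± 0.221 CPM against 378 ± 7.16 CPM, and its 3 aggregate libraries lay within 204 to 205 CPM. BUB1, the remaining kinase, was just short of the 1.5-fold call (-0.61). For BUB1B, 10.2% of exon bases are shared with the overlapping gene BUB1B-PAK6.

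Anaphase and cohesion control held both large and small falls. SGO1, a shugoshin that protects centromeric cohesion, had 22.8, 22.6 and 23.2 CPM in the aggregate libraries and 40.8, 42.2 and 45 CPM in the diffuse libraries. SGO2, its paralog, had 71.6, 72.9 and 76.2 CPM in the aggregate libraries and 125, 131 and 131 CPM in the diffuse libraries. Neither gene showed overlap between groups (SGO1: log2 fold change -0.90, SE 0.05, edgeR quasi-likelihood test, adjusted p = 2.87e-32; SGO2: -0.81). Securin PTTG1 and its partner, the separase ESPL1, which cuts cohesin, both fell: PTTG1 was at 136 ± 3.23 CPM against 208 ± 0.811 CPM and ESPL1 at 85.7 ± 5.1 CPM against 127 ± 0.645 CPM, 65.2% and 67.5% of the diffuse level. The near-copy PTTG2 had 2 to 6 counts per library. CDC20, the activator of the anaphase-promoting complex that the checkpoint holds in check, had 218, 226 and 221 CPM in the aggregate libraries and 249, 231 and 238 CPM in the diffuse libraries. Aggregate library 2, the highest of its group, lay just below diffuse library 2, the lowest of the other (log2 fold change -0.11, SE 0.04, edgeR quasi-likelihood test, adjusted p = 0.00495). Under upper quartile scaling CDC20 did not pass (-0.06, adjusted p = 0.0828). CDC20 thus stood apart in size from its inhibitors, its 95% interval of -0.18 to -0.04 lying above that of MAD2L1 (-1.26 to -1.11) and of BUB1B (-1.21 to -1.07). For SGO1, 17.7% of exon bases overlap SGO1-AS1 on the opposite strand.

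Spindle assembly factors fell throughout, all 5 beyond 1.5-fold, to 51.1% of their summed diffuse level. DLGAP5 (HURP; chromosome 14, 55148112 to 55191678, minus strand), which stabilizes kinetochore fibres, had 236, 243 and 251 CPM in the aggregate libraries and 701, 699 and 717 CPM in the diffuse libraries. HMMR, a spindle and hyaluronan-binding protein, had 78.5, 80.2 and 86.3 CPM in the aggregate libraries and 152, 146 and 154 CPM in the diffuse libraries. DLGAP5 was at 34.5% of its diffuse level and HMMR at 54.2%, with wide gaps between groups (DLGAP5: log2 fold change -1.53, SE 0.04, edgeR quasi-likelihood test, adjusted p = 5e-58). ASPM, a spindle pole protein, was at 122 ± 5.1 CPM against 222 ± 7.06 CPM. NUSAP1, which bundles microtubules, was at 129 ± 1.3 CPM against 213 ± 1.48 CPM, but 62.2% of its exon bases are shared with an overlapping gene model on the same strand. TPX2, the activator of AURKA, was at 448 ± 15.7 CPM against 712 ± 16.7 CPM and in diffuse cells the most abundant of the 41 per kilobase of exon, at 198 CPM per kb.

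Chromosome structure genes fell unevenly. Condensin I is built from the SMC2 and SMC4 ATPases with NCAPD2, NCAPG and NCAPH. NCAPD2 had 297, 330.1 and 314 CPM in the aggregate libraries and 576, 555 and 569 CPM in the diffuse libraries. SMC4 had 154, 156 and 164 CPM in the aggregate libraries and 249, 268 and 263 CPM in the diffuse libraries. The groups were apart for both, and both passed the 1.5-fold limit (NCAPD2: log2 fold change -0.85, SE 0.04, edgeR quasi-likelihood test, adjusted p = 8.64e-38; SMC4: -0.72). SMC2 was at 163 ± 7.14 CPM against 243 ± 5.6 CPM and NCAPG at 78 ± 2.89 CPM against 103 ± 1.87 CPM. NCAPH, the kleisin that closes the ring, was at 139 ± 5.83 CPM against 164 ± 1.63 CPM, and its interval of -0.31 to -0.16 lay above those of the other 4 subunits. For NCAPG, 33.1% of exon bases overlap LCORL on the opposite strand, and for SMC4 18.5% overlap TRIM59. The subunits found only in condensin II went different ways: NCAPG2 fell (98.7 ± 0.536 CPM against 136 ± 2.36 CPM, log2 fold change -0.46, SE 0.04, edgeR quasi-likelihood test, adjusted p = 4.1e-21), NCAPD3 rose by 0.11 (adjusted p = 0.0162), and NCAPH2 was at 67.8 ± 0.56 CPM against 66.6 ± 3.09 CPM with no call.

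The proliferation markers showed the same direction. MKI67, which coats mitotic chromosomes and is the antigen Ki-67, had 282, 321 and 320.2 CPM in the aggregate libraries and 626, 657 and 659.8 CPM in the diffuse libraries. TOP2A, the topoisomerase that untangles sister chromatids, had 649.7, 680.2 and 703 CPM in the aggregate libraries and 1062, 1078 and 1100.2 CPM in the diffuse libraries. Both were lower in every aggregate library, MKI67 by more than TOP2A (MKI67: log2 fold change -1.07, SE 0.04, edgeR quasi-likelihood test, adjusted p = 7.42e-36; TOP2A: -0.67). For both genes aggregate library 1 was the lowest of the 6.

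Cytokinesis genes held the largest falls of the set, with a median of -1.30 and a sum at 42.4% of the diffuse level. RACGAP1 (MgcRacGAP; chromosome 12, 49976923 to 50033136, minus strand), a subunit of centralspindlin, had 167, 174 and 173 CPM in the aggregate libraries and 666, 635 and 663 CPM in the diffuse libraries. ECT2 (chromosome 3, 172750682 to 172821474, plus strand), the exchange factor that centralspindlin brings to the midzone to activate RhoA, had 169.8, 172 and 180.2 CPM in the aggregate libraries and 463, 471 and 479 CPM in the diffuse libraries. The fall of RACGAP1 left 26.2% of the diffuse level and was the largest of the 41 (log2 fold change -1.93, SE 0.04, edgeR quasi-likelihood test, adjusted p = 7.38e-66), and ECT2 was left with 37% (log2 fold change -1.44, SE 0.04, adjusted p = 3.1e-56). PRC1, which bundles the midzone microtubules, was at 62 ± 0.797 CPM against 138 ± 2.72 CPM, though 57.6% of its exon bases are shared with another gene model on the same strand. ANLN (anillin), which links actin and septins in the contractile ring, fell less, to 359 ± 7.26 CPM against 546 ± 5.64 CPM (-0.60). Its interval of -0.68 to -0.53 lay above those of its 3 companions.

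**Figure D4:**
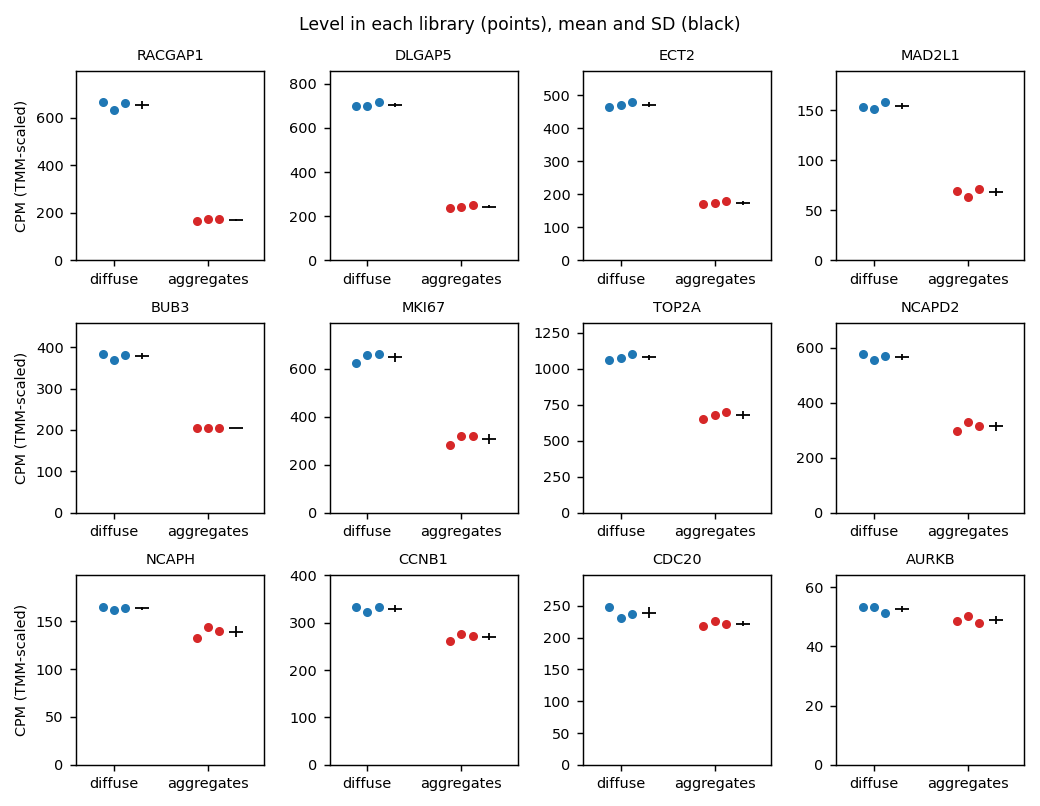
TMM-scaled CPM of 12 of the genes in each library (points; diffuse in blue, aggregates in red) with the group mean and SD in black, each y axis starting at 0. RACGAP1, DLGAP5 and ECT2 show the widest gaps between groups, while the groups of CDC20 and AURKB lie next to each other.

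At the 1.5-fold limit the order of genes was close. The last to pass were TOP2A and TPX2 (both -0.67, glmTreat adjusted p = 0.0129 and 0.0144), and the next were PTTG1 (-0.62), BUB1 (-0.61) and ANLN (-0.60), with glmTreat adjusted p of 0.224, 0.251 and 0.398. Without aggregates library 1, 19 of the 41 passed that limit, and without diffuse library 3, 20 did.

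The promoter motifs can be set beside these values. The 26 genes with a CHR-type match had a median log2 fold change of -0.71 and the 8 without one -0.50, and the ranges overlapped (-1.53 to -0.11 and -1.12 to -0.11). Only TTTGAA and TTCGAA were searched, so the 8 lack these letters and not necessarily every form of the element. The 21 genes with both motifs in 1 window ranged from -1.53 (DLGAP5) to -0.11 (CDC20). MYBL2 was the only gene with neither motif in its window, at -0.47.

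A second readout of the same genes came from reads that span introns, counted in the LeafCutter table, in which introns sharing a splice site form a cluster. Summed over the introns of a gene, these counts gave falls in all 41 genes, with a median of -0.71. The difference from the gene counts was at most -0.10 (CCNB2, -0.41 from introns) in one direction and 0.05 (CDC25C) in the other. Both tables come from the same libraries.

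Within clusters, the share of an intron can change apart from the level of the gene. Of 202 tested clusters in the 41 genes, 16 changed in 14 genes (edgeR diffSpliceDGE, Simes over introns), where 5.02% of 35898 clusters did in all. In these 16 clusters 21 introns changed, 18 with a lower and 3 with a higher share in aggregates. Introns entered on counts summed over both groups, and these genes had more reads in diffuse cells. A rare intron could thus enter through the diffuse libraries alone, which favours a lower share in aggregates. The direction is therefore not read as a result. Most of the 21 were rare: 18 made up under 5% of their cluster in both groups, and 11 are absent from the GENCODE 29 annotation, 9 of these lower in aggregates. The same counts over the changed introns of all genes were not made, so none of them is a trait of these genes. Cluster totals were 237 to 11436 reads per library.

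ECT2 held the largest change. An annotated intron (chromosome 3, 172755375 to 172756982) joins the exons on either side of an exon of 93 bases at 172755483 to 172755575. It took 173 of 888, 194 of 1011 and 178 of 925 cluster reads in aggregate libraries 1, 2 and 3, and 190 of 2469, 231 of 2681 and 255 of 2827 in diffuse libraries 1, 2 and 3. These are 19.3% ± 0.156 in aggregates and 8.44% ± 0.679 in diffuse cells (SD, n = 3), with no overlap (cluster adjusted p = 5.99e-12, edgeR diffSpliceDGE). Exact Clopper-Pearson 95% intervals of single libraries lay within 16.7% to 22.2% in aggregates and 6.67% to 10.1% in diffuse cells, and cover counting error only. Inclusion of the exon, computed from the introns on both sides of it, was 67.5% ± 0.196 in aggregates and 84.4% ± 1.13 in diffuse cells. The exon length is a multiple of 3. ECT2 thus had less RNA and a larger share of RNA lacking this exon.

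PTTG1 and BUB3 had the other shifts of 5 points or more. In PTTG1 an annotated intron (chromosome 5, 160422156 to 160422301) shares its end with the main intron of the cluster. It took 12.7%, 10.8% and 12.5% of cluster reads in aggregates and 21.9%, 22.3% and 20.8% in diffuse libraries. The groups lay apart (cluster adjusted p = 1.05e-06, edgeR diffSpliceDGE), and the single-library exact 95% intervals lay within 9.14% to 14.8% and 18.7% to 24.4%. In BUB3 an annotated intron (chromosome 10, 123162829 to 123165046) shares its start with the main intron of the cluster. It took 21.7%, 21.2% and 21.6% in aggregates and 28.9%, 26.1% and 28.2% in diffuse libraries. Its groups lay apart too (adjusted p = 0.0213), with intervals within 19.1% to 24.1% and 24.3% to 30.9%. The BUB3 call was lost when aggregates library 1, 2 or 3 or diffuse library 1 or 3 was left out (adjusted p = 0.0525, 0.0705, 0.0608, 0.0948 and 0.0822).

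**Figure D5:**
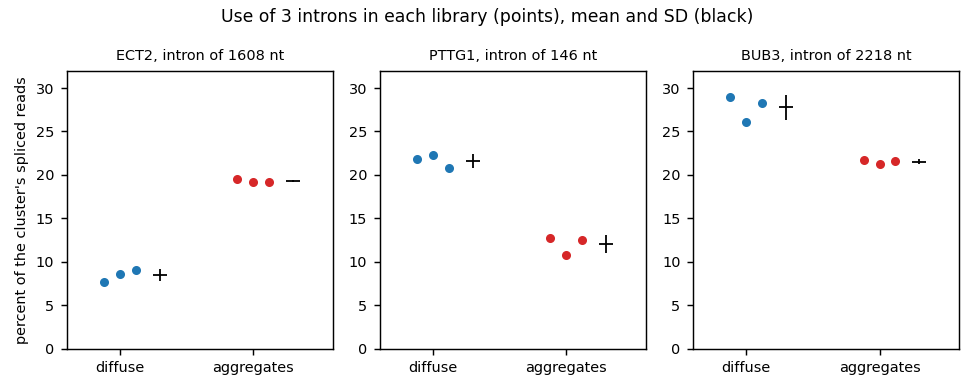
Share of cluster reads, in percent, taken by 1 intron each of ECT2, PTTG1 and BUB3 in every library (points; diffuse in blue, aggregates in red) with the group mean and SD in black. The ECT2 intron that skips an exon rises from 8.44% to 19.3%, and the PTTG1 and BUB3 introns fall.

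Among the rare introns, several had 0 reads in 1 group and thus entered the test through the other group alone. An unannotated intron of TTK (chromosome 6, 80040704 to 80046746) had 0 of 776 cluster reads over the aggregate libraries, which allows a share of up to 0.387%, and 3.02% ± 1.04 in diffuse cells. Unannotated introns of RACGAP1 (chromosome 12, 49992656 to 49994413; 0 of 4656) and DLGAP5 (chromosome 14, 55176019 to 55179628; 0 of 6400) and an annotated one of PRC1 (chromosome 15, 90981982 to 90984692; 0 of 4971) were likewise at 0 in aggregates, with 0.23%, 0.186% and 0.236% in diffuse cells. The reverse held for an unannotated intron of NCAPH (chromosome 2, 96342495 to 96342755), with 6, 9 and 5 reads in aggregates, 1.12% ± 0.163, and 0 of 1942 in diffuse cells, which allows up to 0.154%. In CCNB1 an unannotated intron (chromosome 5, 69168236 to 69171269) took 1.10% ± 0.511 in aggregates and 0.338% ± 0.119 in diffuse cells.

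The remaining changed introns had lower shares in aggregates. In MYBL2, a pair of introns with an unannotated splice site (chromosome 20, 43705359 to 43708921 and 43710811 to 43711487) went from 1.28% and 2.03% in diffuse cells to 0.251% and 1.04%. In BIRC5, 2 annotated introns (chromosome 17, 78216782 to 78222827 and 78222993 to 78223464) went from 1.84% and 2.44% to 0.85% and 0.989%. Smaller shares fell in CDC25B (2.07% to 0.0627%), CDC25C (1.57% to 0.0689%), MAD2L1 (0.464% to 0.016%), another cluster of DLGAP5 (0.378% to 0.0663% and 0.30% to 0.0765%), a second cluster of ECT2 (1.68% to 0.61%), and 2 further introns of PRC1 (0.894% to 0.137% and 1.28% to 0.317%). Of the 16 cluster calls, 9 held without any 1 library. Beside BUB3, calls were lost for PRC1 without aggregates library 3 (adjusted p = 0.0696), CCNB1 without aggregates library 1 (0.248) or diffuse library 2 (0.0768), CDC25C without aggregates library 2 or 3 or diffuse library 1 or 2 (0.0514 to 0.26), the DLGAP5 cluster at 0 reads in aggregates without any 1 of aggregates 1 to 3 and diffuse 1 and 2 (0.0903 to 0.155), the second cluster of ECT2 without any 1 of aggregates 1 and 3 and diffuse 1 to 3 (0.0822 to 0.269), and RACGAP1 without any 1 of the 6 (0.0625 to 0.162).

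Lists of related genes were read in the same fit. Their counts of falls and rises stand beside 37.6% fallen and 37.8% risen over all genes tested. The core subunits of the anaphase-promoting complex, the ubiquitin ligase that CDC20 activates, did not fall as a group: 9 of 14 rose and 3 fell, with a median of 0.20. CDC26 rose (7.62 ± 0.576 CPM against 4.15 ± 0.379 CPM, 0.87) and CDC27 fell (118 ± 4.75 CPM against 189 ± 1.97 CPM, -0.69), while ANAPC4 rose by 0.43. Its regulators mostly fell, 5 of 6, led by the E2 enzyme UBE2C (-0.61) and the coactivator FZR1 (-0.54). Of 13 cohesin genes, 10 fell and 1 rose, with RAD21, the kleisin cut by separase, at 346 ± 13.7 CPM against 735 ± 7.45 CPM, PDS5B at -1.05 and CDCA5 (sororin) at -0.90.

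Regulators of mitotic entry outside the set fell in 9 of 14 cases and rose in none, with a median of -0.56. WEE1, the kinase that inhibits CDK1, had a fold change close to that of RACGAP1, going from 282, 289 and 289 CPM in diffuse libraries to 71.5, 69.9 and 71.9 CPM in aggregates (log2 fold change -2.01, SE 0.04, edgeR quasi-likelihood test, adjusted p = 1.52e-67). GTSE1 (-0.91) and the CDK subunit CKS2 (-0.88) followed. Of 18 RB, E2F and MuvB genes 13 fell and 5 rose, beside 37.6% and 37.8% of all genes tested. Among the falls were the activator E2F3 at -1.18, the MuvB subunit LIN54 at -0.99 and the MuvB subunit LIN52 at 29.9 ± 0.863 CPM against 59.7 ± 1.02 CPM. RBL2 and E2F4 were among those that rose (0.39 and 0.51, named after their values were seen). They form the repressor complex of resting cells with MuvB, whose subunits LIN54 and LIN52 fell.

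Genes of G1/S and S phase were mixed: 18 of 28 fell and 5 rose, beside 37.6% and 37.8% of all genes tested. Their median was -0.31. DTL (-1.26), the licensing factor CDC6 (-1.14) and CCNE2 (5.32 ± 0.194 CPM against 10.6 ± 0.484 CPM) fell most, and the 28 genes summed to 84.0% of their diffuse level. Of 6 CDK inhibitors tested, 4 fell and 1 rose. The INK4 genes CDKN2B (8.49 ± 0.867 CPM against 48.3 ± 1.43 CPM), CDKN2C (-1.72) and CDKN2D (-1.67) fell. CDKN1A (p21) rose by 1.06 (417 ± 19.2 CPM against 199 ± 8.58 CPM). It is outside the rule for naming and was named after its values were seen. CDKN2A did not pass the filter on low counts, with at most 0.0238 CPM in a library.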

How the data were processed

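Reads were handled with STAR 2.7.11a and fastp 0.23.2 on hg38, per the submitters' processing notes. Not given in the sources used here are the gene counter, its annotation and strand setting, and the version of LeafCutter. Both deposited tables hold whole-number counts, not normalized by the authors: reads per gene (36601 rows, all named) and spliced reads per intron. Libraries held 40279084 to 46863013 gene counts, and no column of sample values was left unmapped.

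The gene test used R 4.3.3 and edgeR 4.0.16 on all 6 libraries: filterByExpr, TMM scaling, a robust quasi-likelihood fit of aggregates against diffuse, Benjamini-Hochberg adjustment over all genes tested and a threshold of 0.05. The glmTreat function tested against a fold of 1.5. Intervals are 95%. An intron entered with 10 counts or more over the libraries, and a cluster with 10 or more in each library; both were tested with diffSpliceDGE and placed by GENCODE 29 splice sites. Gene positions and exon lengths come from GENCODE 29, promoters from RefSeq. The scripts were tested on simulated data.

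All 41 genes are accounted for. Library values are given for the 2 largest changes in each role, and from each other list up to 3 called genes of at least 5 CPM; some items are not reported here. The genes, roles and lists were chosen with earlier results of these data known. Alternatives were other scalings and filters, DESeq2 1.42.0, a replicate block and leaving out each library.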

Additional observations from a re-analysis of the deposited data

How the results depend on the processing

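All 41 genes fell and 0 rose under relative log expression factors, library totals, no filter, a 5 CPM minimum, summed introns and DESeq2. Under upper quartile scaling, 39 fell, with AURKB and CDC20 not called, and the median was -0.63; the median of all genes moved there from 0.01 to 0.06. With a fold limit of 1.2 in place of 1.5, 35 genes passed. Leaving out each library gave 40 to 41 falls, 0 rises, a median of -0.70 to -0.64, 19 to 22 genes beyond 1.5-fold and 11 to 15 changed clusters. AURKB was the call lost, without aggregates library 1. A minimum of 20 counts per cluster and library gave 16 changed clusters and the cluster F test 24. Of 574 values of single genes under alternatives, 571 kept direction and call.

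Libraries with the same number did not deviate together strongly (correlations 0.036, 0.079 and 0.054), although each correlated best with its own number, so numbers were not taken as pairs. With the replicate block, 41 genes fell, 22 beyond 1.5-fold, with a median of -0.67, and 14 clusters changed: the DLGAP5 cluster at 0 reads in aggregates, that of RACGAP1 and the second of ECT2 were no longer called (diffSpliceDGE adjusted p = 0.0514, 0.0646 and 0.0641), and 1 of SMC4 was (0.0486).

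Introns at under 1% of a cluster rest on few reads, and read counts carry no molecular identifiers. Genes that share exons with another gene remain uncertain.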
